A study of Mus musculus with 18 samples.

Results

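The genes described here encode the proteins of the cytosolic ribosome, measured by RNA sequencing in cultured mouse macrophages. They were chosen by symbol: protein-coding genes named Rpl or Rps followed directly by a digit, with Rplp0, Rplp1, Rplp2 and Rpsa, and without pseudogenes or the S6 kinases. The rule took 86 of the 48794 genes in the count table, and 83 of them were among the 13177 genes with enough counts to be tested. It also took Rps19bp1, which encodes a protein that binds Rps19, and Rpl7l1, a relative of Rpl7; neither is a core protein of the ribosome. Bone marrow of male C57BL/6 mice from a commercial breeder was grown for 7 days with M-CSF at 50 ng/ml, and the resulting macrophages were then cultured for 24 h in 1 of 3 conditions. The IL4_IL13_TNFa cells received IL-4, IL-13 and TNFa, each at 10 ng/ml. The IL4_IL13 cells received IL-4 and IL-13 alone at the same doses, and the Control cells received no added cytokine. All 3 groups, Control included, kept M-CSF at 10 ng/ml, and each group held 6 libraries numbered 1 to 6. The labels name no genetic change and do not say whether the libraries came from separate mice or cultures, so p-values reflect library-to-library spread alone, and that may be technical.

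A ribosome joins a small subunit, which holds the messenger RNA, to a large subunit, which forms peptide bonds. Its proteins are for the most part needed in equal number. Most ribosomal protein messages begin with a run of pyrimidines called a 5′ terminal oligopyrimidine (TOP) tract, through which the mTORC1 pathway and its effector Larp1 govern their translation. Bulk messenger RNA data such as these measure the amount of the message and not its translation, and in a mixed culture fewer cells of a type and less RNA per cell cannot be told apart.

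The start of the transcript is shown for 6 members because the C/T run there is the feature the family is known for. RefSeq promoter windows on GRCm38.p6 were matched for 66 of the 86 members, and the 30 bases from 10 before to 20 after an annotated start were searched on the transcribed strand for runs made only of C and T. Where a gene had several starts, the start with the longest run was taken, for members and for all other genes alike. Capitals mark the longest such run.
Rps6: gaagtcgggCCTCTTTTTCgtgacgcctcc
Rplp2: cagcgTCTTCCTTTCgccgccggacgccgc
Rpl38: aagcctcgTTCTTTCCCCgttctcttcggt
Rps18: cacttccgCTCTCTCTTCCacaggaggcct
Rpl22l1: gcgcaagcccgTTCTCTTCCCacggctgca
Rpl36al: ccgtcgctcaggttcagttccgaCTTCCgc
These windows lie at chr4:86857348-86857377 (minus strand) for Rps6, chr7:141447641-141447670 (plus) for Rplp2, chr11:114668570-114668599 (plus) for Rpl38, chr17:33955646-33955675 (minus) for Rps18, chr3:28805498-28805527 (plus) for Rpl22l1 and chr12:69184048-69184077 (minus) for Rpl36al. The run was 10 bases long in Rps6, Rplp2, Rpl38 and Rpl22l1, 11 in Rps18 and 5 in Rpl36al. A run of 8 or more C or T bases was present in 24 of the 66 members, or 36.4%, against 13.0% of 27025 genes in the same table. Rpl27a had the longest run of any member, with 20 bases. A match only describes these letters, since the annotated start need not be the start used in these cells.

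The libraries held 14793404 to 20056125 counts. All 10 macrophage markers were measured in each group, and their summed level was 8653 to 9515 CPM (counts scaled to a common library size with TMM factors, explained below) in IL4_IL13_TNFa, 8859 to 10727 in IL4_IL13 and 14975 to 26282 in Control, or 22008 to 26282 without replicate 1. The summed level of 8 stromal markers varied within every group, from 59.3 to 366 CPM, from 56.5 to 569 CPM and from 20.2 to 643 CPM in the same order of groups, or 107 to 643 CPM in Control without replicate 1. The markers of T and NK cells, of mast cells and basophils and of erythroid cells summed to under 1 CPM in every library, and in the erythroid list Alas2, Hba-a1 and Hbb-bs were at 0. The sums of other marker lists differed between the groups at low levels. The 5 dendritic cell markers summed to 34.0 to 36.5 CPM in IL4_IL13_TNFa, 2.72 to 5.55 CPM in IL4_IL13 and 1.26 to 3.47 CPM in Control. They did not move together: 2 had enough counts to be tested, and 1 was higher and 1 lower in each comparison of groups. The 3 eosinophil markers summed to 46.8 to 53.6, 19.2 to 23.1 and 0.710 to 1.64 CPM in the same order of groups, with Epx at 0. The 4 megakaryocyte markers summed to 4.77 to 9.13, 0.453 to 0.863 and 1.27 to 1.85 CPM, with Gp9 at 0. Only 1 eosinophil marker and 2 megakaryocyte markers had enough counts to be tested. The part of these cell types in the results was not tested. Control replicate 1 stood apart from the other 5 Control libraries. Its 20 cell cycle genes summed to 4531 CPM, against 1154 to 2060 CPM in the others, and its 76 ribosome biogenesis factors to 4465 CPM, against 2755 to 2856 CPM. Its stromal and macrophage sums, at 20.2 and 14975 CPM, were the lowest in Control. The sum over the 86 ribosomal protein genes was 9791 CPM there, inside the 9261 to 9888 CPM of the others, but 10 of the named genes stood apart in it. Results are therefore also given without it where it matters, and its part in them was not otherwise tested.

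The ribosomal protein genes together held about 1% of all counts, and the level per kilobase of transcript spread 96.7-fold between the highest and the lowest of the 83 tested members in Control. Rplp1, a protein of the acidic stalk of the large subunit that recruits elongation factors, was highest, with 956 CPM per kb in IL4_IL13_TNFa, 936 in IL4_IL13 and 739 in Control. Rpl8, a core protein of the large subunit, followed in Control with 525 CPM per kb. At the other end Rps27rt had 7.64 CPM per kb in Control, Rps23 had 7.87 and Rps29 had 9.13. Rps6, the substrate of the S6 kinases, was also low, at 27.0 ± 0.870 CPM per kb in IL4_IL13_TNFa, 21.3 ± 1.99 in IL4_IL13 and 16.2 ± 1.36 in Control (SD, n = 6 each). Across members these levels went in part with how much of a transcript can be told apart from other genes. Of the 86 members, 81 share a 75-base window with another annotated gene and 80 share it with a pseudogene. The share of windows found in no other gene had a median of 49.2% over members and was lowest in Rps27, at 1.48%. Across the 83 tested genes it correlated with the Control level per kb (Pearson r = 0.41, Spearman rho = 0.44). The points share libraries and the genes are not independent replicates. Single genes departed from this: Rps29 had 69.3% unique windows despite its low level, and Rps27 ranked 20 of 83 by Control level. How the authors' counting treated reads that fit several genes is not given in the sources used here, and its part in these levels was not tested.

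**Figure D1:**
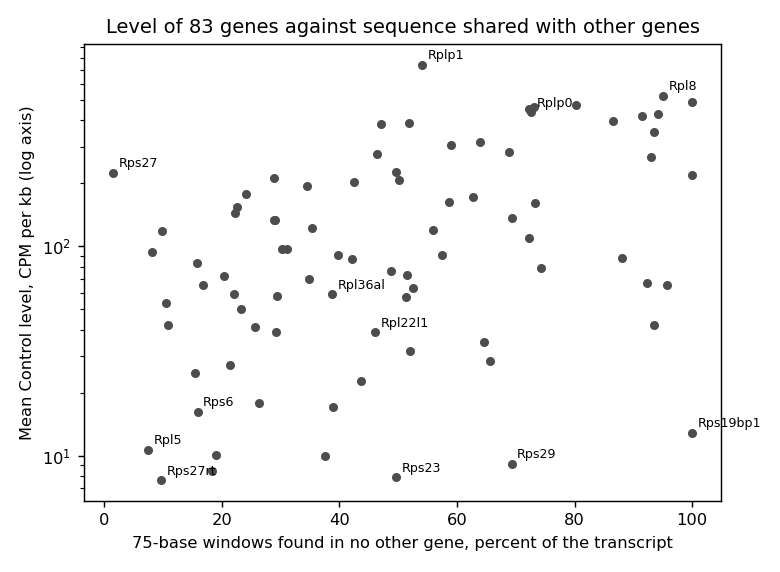
Each point is 1 of the 83 tested genes, with the percent of its 75-base transcript windows found in no other annotated gene on the x axis and its mean Control level in CPM per kb (n = 6 libraries, log axis) on the y axis. Rplp1 is highest at 739 CPM per kb, and Rps27, with 1.48% unique windows, lies far to the left.

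Beneath the filter lay 3 members. Rpl10l, a retrocopy of Rpl10 known for its role in the testis, had 1 read in all 18 libraries, and Rpl3l, the striated muscle relative of Rpl3, had 12. Rpl39l, just below the filter, had 132 reads, of which 51 were in IL4_IL13_TNFa, 43 in IL4_IL13 and 38 in Control. Just above it lay Rps27rt with 1121 reads, of which 365, 442 and 314 fell in these groups.

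The share of a library's counts that falls on the 86 genes needs no scaling between libraries. Both cytokine groups had a larger share than Control, and IL4_IL13 had the largest. The lowest, median and highest shares were 1.08%, 1.18% and 1.29% in IL4_IL13_TNFa, 1.19%, 1.27% and 1.45% in IL4_IL13, and 0.997%, 1.05% and 1.05% in Control. No Control library reached either cytokine group, whereas the cytokine groups overlapped each other. The mean share was 1.18% ± 0.0712 in IL4_IL13_TNFa, 1.28% ± 0.0967 in IL4_IL13 and 1.04% ± 0.0220 in Control (SD, n = 6 each). IL4_IL13 exceeded Control by 0.239 percentage points, a ratio of 1.23, in 6 of 6 replicate numbers. The IL4_IL13_TNFa share was 0.101 points below that of IL4_IL13, a ratio of 0.921, lower in 6 of 6 replicate numbers. It was 0.138 points above that of Control, a ratio of 1.13, again in 6 of 6. The 10 most abundant genes took 8.16% to 8.55% of the counts in IL4_IL13_TNFa, 5.36% to 6.21% in IL4_IL13 and 5.76% to 6.80% in Control. A share falls when other genes take more of the total. The part of this in the shares of the ribosomal protein genes was not tested.

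**Figure D2:**
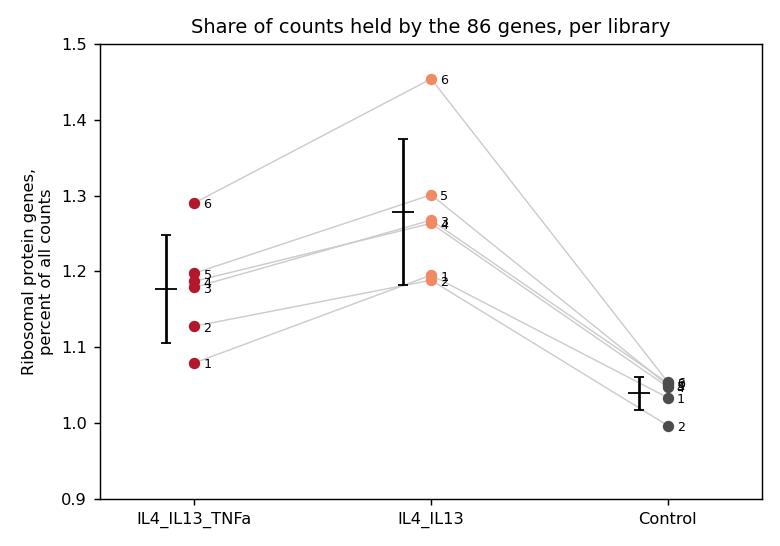
Percent of all counts held by the 86 genes in each library (points, numbered by replicate, grey lines joining the same number), with the mean and SD of 6 libraries beside each group. The y axis starts above 0. IL4_IL13 averages 1.28% and lies above IL4_IL13_TNFa for every replicate number, and all Control libraries lie at or below 1.05%.

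IL4_IL13 against Control asked what IL-4 and IL-13 changed. Ribosomal protein genes rose almost as a block: 75 of 83 were higher in IL4_IL13, none was lower, and the median log2 fold change was 0.35, with all 83 estimates above 0. Among all genes tested 29.3% were called higher and 29.7% lower, and the median was near 0 (−0.0024). The groups did not overlap for 47 of the 83, against 12.5% of all genes on the higher side and 14.2% on the lower side. Both subunits moved, with 46 of 49 large subunit genes and 29 of 34 small subunit genes higher and medians of 0.34 and 0.36. The quartiles of the members lay at 0.27 and 0.47, so most changes were under 1.4-fold. TMM scaling, the trimmed mean of M-values, sets the typical gene to no change. Library totals in its place left 69 higher and none lower, beside 26.3% and 33.2% of all genes. Without Control replicate 1, 75 of 84 were higher and none lower, beside 35.5% and 32.5% of all genes. The estimate of Rps27 was then −0.02, so not all estimates stayed above 0.

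Rpl22l1, a paralog of the large subunit protein Rpl22 on chromosome 3 (chr3:28805436-28807424, GRCm38), changed most. Its lowest, median and highest levels were 33.1, 36.4 and 40.5 CPM in IL4_IL13, against 16.5, 19.0 and 29.7 CPM in Control, where the 29.7 was replicate 1. The groups did not overlap and the log2 fold change was 0.83 ± 0.12 (standard error, adjusted p = 8.99e-06). Without Control replicate 1 it was 0.98 (adjusted p = 2.17e-09). Rpl10a, a large subunit protein near the exit site for transfer RNA, had 66.7, 72.6 and 81.3 CPM in IL4_IL13, against 35.9, 39.0 and 55.5 CPM in Control, and rose by 0.81 ± 0.092 (adjusted p = 5.65e-07). Rpl12, at the base of the stalk, had 59.4, 67.9 and 79.9 CPM in IL4_IL13, against 33.3, 37.6 and 51.2 CPM in Control, and rose by 0.80 ± 0.093 (adjusted p = 7.85e-07). For both, every IL4_IL13 library lay above every Control library. Rps27l and Rpl31 completed the 5 largest rises, at 0.71 and 0.68. Of the 8 genes that did not pass, Rpl7a had the smallest estimate, 0.07 ± 0.055 (adjusted p = 0.293), followed by Rps27 at 0.08 and Rpl5 at 0.10, and the libraries of the groups overlapped for each. Rps14, Rps9, Rps13 and Rps27rt did not pass either. With the replicate number as a block, these last 4 passed (adjusted p = 0.0241, 0.00145, 0.0171 and 0.0141). In that fit 80 of 83 were higher and none lower, beside 4403 higher and 4229 lower of all 13177 genes.

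IL4_IL13_TNFa against IL4_IL13 asked what TNFa added. Here the answer hangs on the scaling. With TMM, 29 of 83 members were higher and none lower, with a median of 0.11, where 30.3% of all genes were called higher and 29.3% lower; the share of members called higher, 34.9%, was near this background. The groups did not overlap for 8 of the 83, where 23.3% of all genes were wholly higher and 21.6% wholly lower. With library totals only 4 were higher (Rpl27, Rpl36al, Rpl38 and Rps19bp1), 21 were lower, beside 17.6% and 46.2% of all genes, and the median was −0.096, while the median of all genes was −0.20. Of all calls, 50.9% were higher with TMM and 27.5% with library totals. Relative to the median of all genes the members stood 0.11 higher, and 69 of 83 lay above that median. A change of scaling shifts all genes by nearly the same amount, so these values are alike under both scalings by construction. With the replicate block and TMM, 43 of 83 were higher and none lower, beside 4338 higher and 4178 lower of all 13177 genes.

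**Figure D3:**
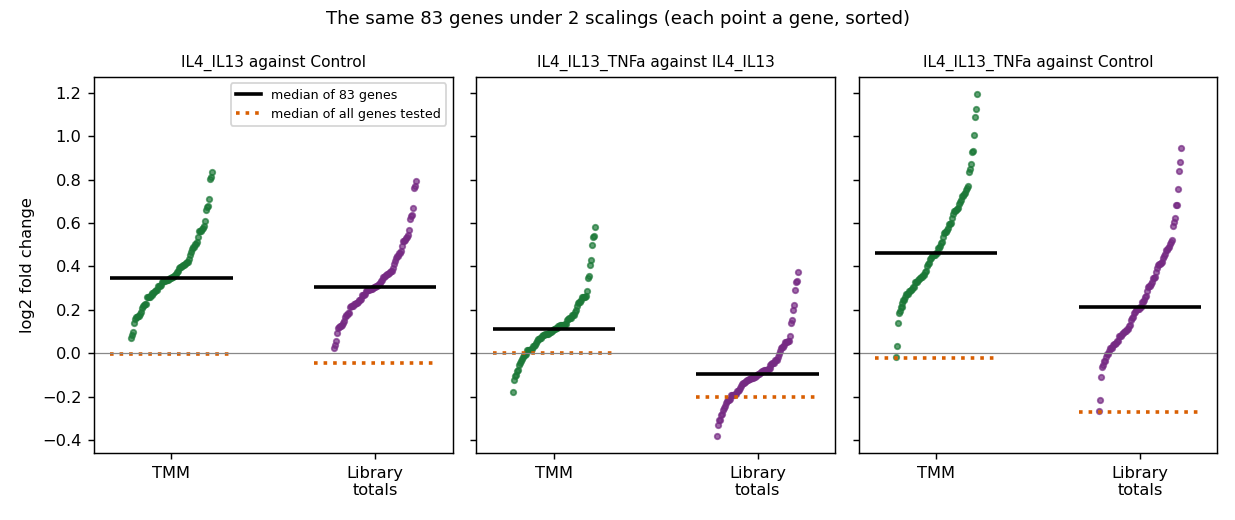
Log2 fold changes of the 83 genes (points, sorted within each column) in 3 comparisons under TMM and library-total scaling, with the median of the members (solid line) and of all genes tested (dotted line). In IL4_IL13_TNFa against IL4_IL13 the members' median is 0.11 with TMM and −0.096 with library totals. The members' median lies above the all-gene median in every column, a gap that a change of scaling leaves nearly the same by construction.

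With TMM the 5 largest rises with added TNFa were those of Rps19bp1, Rpl36al, Rps29, Rpl27 and Rps23. Rps19bp1 (chr15:80260615-80264315) led: its lowest, median and highest levels were 18.2, 19.8 and 25.8 CPM in IL4_IL13_TNFa, against 11.5, 13.9 and 16.01 CPM in IL4_IL13, without overlap. Its log2 fold change was 0.58 ± 0.11 (adjusted p = 1.86e-04), and 0.37 (adjusted p = 0.00738) with library totals. Rpl36al, a paralog of the large subunit protein Rpl36a (chr12:69182731-69184083), had 61.9, 68.2 and 72.7 CPM in IL4_IL13_TNFa, against 42.8, 45.8 and 53.9 CPM in IL4_IL13. It rose by 0.54 ± 0.096 (adjusted p = 7.67e-05), again without overlap, and by 0.33 (adjusted p = 0.00473) with library totals. Rps29, a small zinc-binding protein of the small subunit, had 7.17, 7.84 and 9.88 CPM in IL4_IL13_TNFa, against 4.58, 5.34 and 7.89 CPM in IL4_IL13, and the groups overlapped. Its rise of 0.53 ± 0.20 (adjusted p = 0.0261) did not pass with library totals (0.33, adjusted p = 0.155), with no filter (adjusted p = 0.0522), or without any 1 of IL4_IL13 replicates 3, 4 and 5 and IL4_IL13_TNFa replicates 3 and 6 (adjusted p = 0.0528 to 0.0610). Rpl27 had 9.65, 10.9 and 12.7 CPM in IL4_IL13_TNFa, against 6.34, 7.69 and 9.33 CPM in IL4_IL13, without overlap, and rose by 0.50 ± 0.12 (adjusted p = 0.00119). Rps23, a protein of the decoding centre, rose by 0.43 ± 0.099 (adjusted p = 0.00105), but not with library totals (0.22, adjusted p = 0.0606).

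Rpl41 and Rps15a lay close to no change with TMM, each at −0.01, and were lower with library totals, at −0.21 each. Rpl22l1, the gene that rose most with IL-4 and IL-13, had 26.8, 32.3 and 37.4 CPM in IL4_IL13_TNFa, against 33.1, 36.4 and 40.5 CPM in IL4_IL13. The groups overlapped and the log2 fold change was −0.18 ± 0.12 (adjusted p = 0.205). Control replicate 1 is in neither group and enters through the filter, the scaling and the shared estimate of the spread. Without it the log2 fold change was −0.18 with an adjusted p of 0.0466. With library totals and all libraries it was −0.38 (adjusted p = 0.00790). Rpl22l1 was the only member called lower with TMM without Control replicate 1. Against Control it was 0.66 ± 0.12 higher in IL4_IL13_TNFa (adjusted p = 6.40e-05), with overlap.

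**Figure D4:**
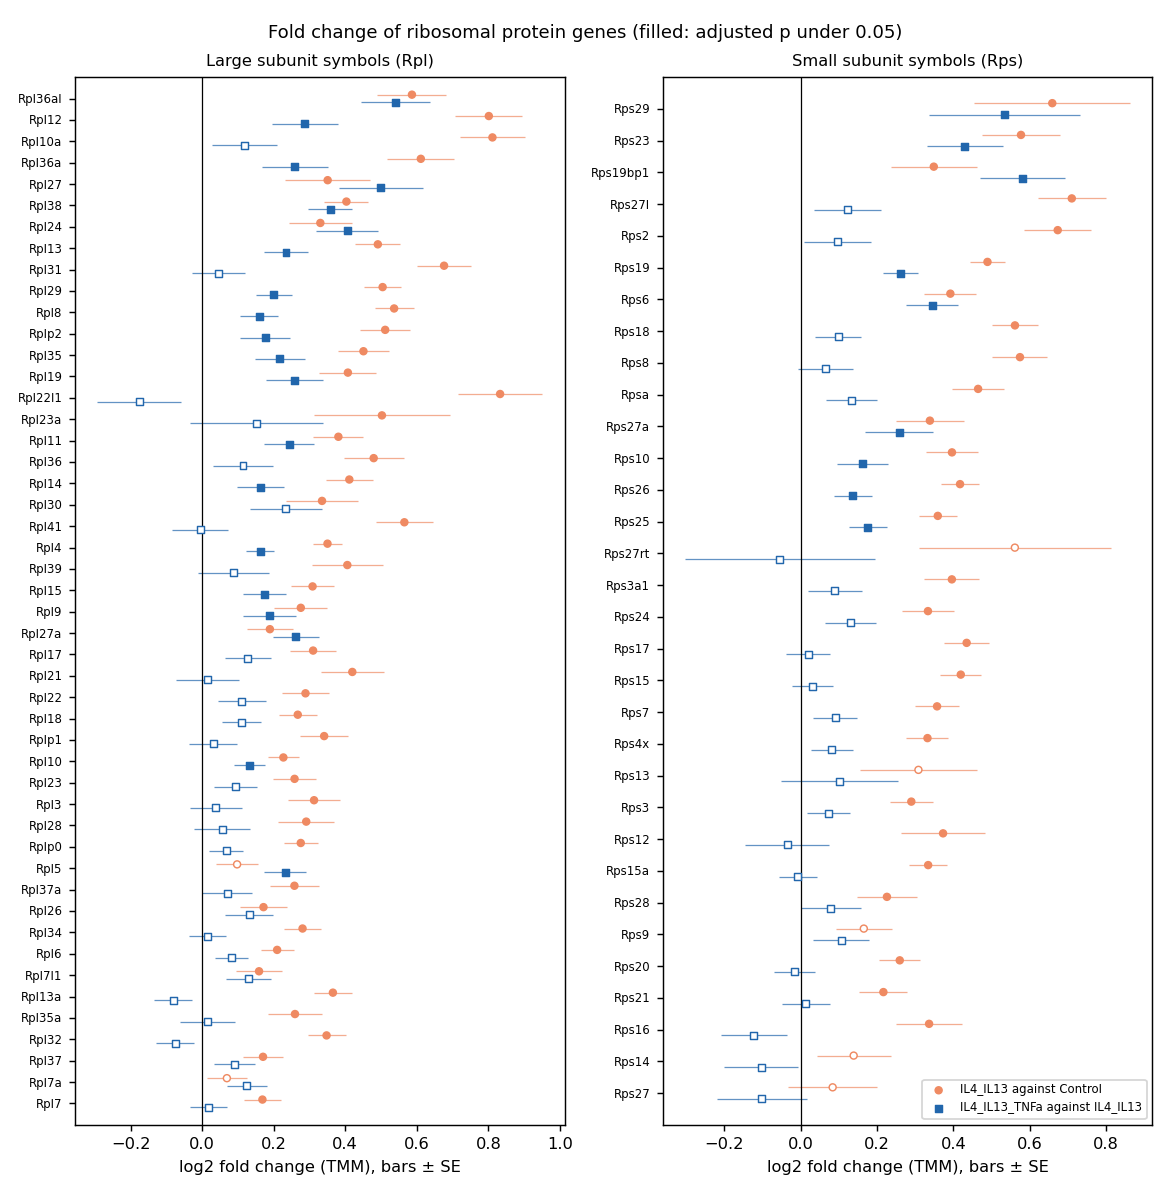
Log2 fold change (TMM) with its standard error for 80 of the 83 genes, in a panel for each subunit and ordered there by IL4_IL13_TNFa against Control, for IL4_IL13 against Control (circles) and IL4_IL13_TNFa against IL4_IL13 (squares); filled symbols passed an adjusted p of 0.05. All circles lie above 0, and 73 are filled; 29 squares are filled and 11 squares lie below 0.

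IL4_IL13_TNFa against Control, which shares its libraries with both comparisons above, gives the joint change of the 3 cytokines. Of the 83 members 79 were higher and none lower with TMM, with a median of 0.46, where 36.4% of all genes were called higher and 37.3% lower and the median of all genes was −0.02. The groups did not overlap for 68 of the 83, against 26.1% of all genes on the higher side and 25.1% on the lower side. With library totals 49 were higher and 1, Rps27, was lower (−0.27, adjusted p = 0.0481), beside 24.9% and 51.4% of all genes, and the median was 0.21 beside −0.27 over all genes; 49.4% of all calls were higher with TMM and 32.7% with library totals. The members stood 0.49 above the median of all genes, and all 83 lay above it. As above, these values are alike under both scalings by construction.

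Rps29 (chr12:69157722-69159186) changed most, with 7.17, 7.84 and 9.88 CPM in IL4_IL13_TNFa, against 2.37, 3.07 and 6.48 CPM in Control, where the 6.48 was replicate 1. The groups did not overlap, and the log2 fold change was 1.19 ± 0.20 (adjusted p = 3.29e-05), or 1.46 without Control replicate 1. Rpl36al had 61.9, 68.2 and 72.7 CPM in IL4_IL13_TNFa, against 27.1, 28.9 and 43.4 CPM in Control, and rose by 1.13 ± 0.097 (adjusted p = 4.59e-09). Rpl12 had 79.1, 84.9 and 87.8 CPM in IL4_IL13_TNFa, against 33.3, 37.6 and 51.2 CPM in Control, and rose by 1.09 ± 0.094 (adjusted p = 4.59e-09). Rps23 and Rpl10a followed at 1.01 and 0.93. These 5 genes had no overlap between IL4_IL13_TNFa and Control. The smallest changes were those of Rps27 at −0.02 and Rps14 at 0.03, neither of which passed (adjusted p = 0.896 and 0.755). Genes with lower Control levels per kb had larger changes (across 83 genes, Pearson r = −0.47, Spearman rho = −0.42). The Control level enters both measures, so this is a description only.

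Members with known roles beyond the core were followed through all groups. Rplp0, the scaffold of the stalk, had lowest, median and highest levels of 688, 769 and 816 CPM in IL4_IL13_TNFa, 664, 731 and 788 CPM in IL4_IL13, and 579, 597 and 611 CPM in Control. Both cytokine groups lay wholly above Control and overlapped each other. It was 0.28 ± 0.048 higher in IL4_IL13 than in Control on the log2 scale (adjusted p = 8.23e-05), and 0.07 ± 0.048 separated IL4_IL13_TNFa from IL4_IL13 (adjusted p = 0.236). Rplp1 gave 0.34 and 0.03, and only the first passed. Rplp2, the partner of Rplp1 in the stalk dimer, rose by 0.51 in IL4_IL13 against Control. With added TNFa Rplp2 rose by 0.18 ± 0.070 (adjusted p = 0.0389). That call was lost without any 1 of IL4_IL13 replicates 1, 2 and 4, IL4_IL13_TNFa replicates 3, 4 and 6 and Control replicate 5 (adjusted p = 0.0518 to 0.0997). With library totals the estimates of Rplp0, Rplp1 and Rplp2 for added TNFa turned to −0.14, −0.18 and −0.03.

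Rps6 rose at each step. Its lowest, median and highest levels were 22.5, 23.8 and 24.5 CPM in IL4_IL13_TNFa, 15.7, 18.8 and 20.4 CPM in IL4_IL13, and 12.7, 14.2 and 15.8 CPM in Control. IL4_IL13_TNFa lay wholly above the others, while the lowest IL4_IL13 library lay just under the highest Control library. Its log2 fold change was 0.39 ± 0.068 in IL4_IL13 against Control (adjusted p = 8.60e-05) and 0.34 ± 0.068 in IL4_IL13_TNFa against IL4_IL13 (adjusted p = 2.30e-04; 0.14 with library totals, adjusted p = 0.0882). Rps19 and Rpl38 also passed in both steps. Rps19, a small subunit protein mutated in Diamond-Blackfan anaemia, changed by 0.49 and then 0.26. Rpl38, known from mouse mutants for its part in patterning of the skeleton, changed by 0.40 and then 0.36. Rps27a, made as a fusion with ubiquitin, changed by 0.34 and then 0.26. With library totals the second step of Rps19 and of Rps27a did not pass, at 0.05 each, and that of Rpl38 did, at 0.15 (adjusted p = 0.0437).

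Rpl5 and Rpl11, which with 5S ribosomal RNA form the particle that binds Mdm2 when ribosome assembly fails, did not share a pattern of calls. Rpl11 had 20.2, 21.99 and 24.8 CPM in IL4_IL13_TNFa, 16.1, 19.1 and 19.7 CPM in IL4_IL13 and 12.8, 14.1 and 16.2 CPM in Control, with changes of 0.38 and 0.24 that both passed. Rpl5 had 24.5, 27.5 and 29.7 CPM in IL4_IL13_TNFa, 21.6, 23.2 and 25.2 CPM in IL4_IL13 and 20.3, 21.4 and 23.5 CPM in Control. Its first step, 0.10 ± 0.058, did not pass and its second, 0.23 ± 0.058, did (adjusted p = 0.00214; 0.02 with library totals, adjusted p = 0.735). The difference between the genes was not tested. Rpl13a, which in human monocytes is released from the ribosome after interferon-gamma to silence inflammatory messages, was 0.37 ± 0.053 higher in IL4_IL13 than in Control (adjusted p = 1.27e-05). For added TNFa it stood at −0.08 ± 0.053 (adjusted p = 0.205), and at −0.29 with library totals (adjusted p = 1.78e-04). Rpsa, Rps3 and Rpl10 were higher in IL4_IL13 than in Control by 0.46, 0.29 and 0.23. For added TNFa they stood at 0.13, 0.07 and 0.13, of which Rpl10 passed (adjusted p = 0.0136), but not with library totals, at −0.08 (adjusted p = 0.150). With library totals Rpsa and Rps3 stood at −0.07 (adjusted p = 0.363) and −0.13 (adjusted p = 0.0511). Rpsa, the laminin receptor precursor and a small subunit protein, passed for added TNFa with the replicate block (0.13, adjusted p = 0.0403), with Control replicate 1 left out (adjusted p = 0.0478), and with IL4_IL13 replicate 6 left out (0.18, adjusted p = 0.0260).

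Several ribosomal proteins have a second gene, and the ratio of the pair within a library needs no scaling. The first 60 coding bases are shown for the Rps27 and Rpl36a families, from GENCODE M21 transcripts, because they show how far reads can tell the copies apart. Capitals mark bases that differ from the first sequence of each family.
Rps27: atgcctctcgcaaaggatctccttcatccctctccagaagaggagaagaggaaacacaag
Rps27rt: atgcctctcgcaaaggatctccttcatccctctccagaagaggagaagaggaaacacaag
Rps27l: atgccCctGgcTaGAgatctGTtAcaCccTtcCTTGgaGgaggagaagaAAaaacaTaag
Rpl36a: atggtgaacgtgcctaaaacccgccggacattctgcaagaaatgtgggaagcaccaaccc
Rpl36al: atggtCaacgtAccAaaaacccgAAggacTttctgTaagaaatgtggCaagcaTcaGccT
Rps27 and Rps27rt are identical over all 252 coding bases, so their split of reads is uncertain. Rps27l differs from Rps27 at 18 of the 60 bases shown and is 77.3% identical over the aligned coding sequence. Rpl36al differs from Rpl36a at 11 of the 60 and is 87.7% identical, while Rpl22l1 and Rpl22 are 69.3% identical.

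None of the 15 differences in paralog share tested (5 pairs, 3 comparisons) passed after adjustment. In Rpl22l1 over Rpl22 the mean log2 ratio was −2.40 ± 0.17 in IL4_IL13_TNFa, −2.10 ± 0.17 in IL4_IL13 and −2.67 ± 0.36 in Control (SD, n = 6 each). IL4_IL13 differed from Control by 0.57 (exact permutation p = 0.0108, adjusted p = 0.0519), and IL4_IL13_TNFa from IL4_IL13 by −0.30 (exact permutation p = 0.0173, adjusted p = 0.0519). Control replicate 1 had a ratio of −1.99, and the other 5 Control libraries, at −2.99 to −2.60, lay below every IL4_IL13 library but met the lowest IL4_IL13_TNFa library, also at −2.60. Without Control replicate 1 the first difference was 0.71 (exact permutation, adjusted p = 0.0162). In Rps27l over Rps27 the mean log2 ratio was 0.03 ± 0.13 in IL4_IL13_TNFa, −0.18 ± 0.24 in IL4_IL13 and −0.82 ± 0.57 in Control. The paralog thus had about as many counts as its partner in IL4_IL13_TNFa. Of the 75-base windows 88.0% were unique in Rps27l and 1.48% in Rps27, so the count ratio cannot be read as relative abundance. Control replicate 1 had a log2 ratio of 0.32, against −1.22 to −0.89 in the other Control libraries. IL4_IL13_TNFa differed from Control by 0.85 with all libraries (exact permutation p = 0.0152, adjusted p = 0.0519) and by 1.07 without that library (exact permutation, adjusted p = 0.0162). IL4_IL13 differed from Control by 0.63, or 0.86 without that library (exact permutation, adjusted p = 0.0690 and 0.0162). Control replicate 1 stood apart in the ratio of Rps27l to Rps27 and in the level of Rpl22l1. The differences without it in these pairs are therefore a description and do not count as passes.

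Rps27l encodes a small subunit protein known as a target of p53. Its own level was 73.1, 79.3 and 82.1 CPM in IL4_IL13_TNFa, 68.7, 71.0 and 76.6 CPM in IL4_IL13, and 36.9, 40.9 and 61.3 CPM in Control. Both cytokine groups lay above every Control library. For added TNFa its log2 fold change was 0.12 ± 0.088 (adjusted p = 0.241), which passed without Control replicate 1 (adjusted p = 0.0154) and was −0.08 with library totals (adjusted p = 0.417). Rps27 had 70.0, 76.7 and 83.6 CPM in IL4_IL13_TNFa, 66.0, 82.4 and 96.2 CPM in IL4_IL13, and 49.2, 84.1 and 88.3 CPM in Control, with overlap throughout. In Rpl36al over Rpl36a the mean log2 ratio was 1.63 ± 0.17 in IL4_IL13_TNFa, 1.34 ± 0.11 in IL4_IL13 and 1.36 ± 0.15 in Control, so Rpl36al was the more counted copy in all groups. IL4_IL13_TNFa exceeded IL4_IL13 by 0.29, in 6 of 6 replicate numbers (exact permutation p = 0.0108, adjusted p = 0.0519). It exceeded Control by 0.28, also in 6 of 6 (exact permutation p = 0.0216, adjusted p = 0.0541). Of the 75-base windows 38.7% were unique in Rpl36al and 15.4% in Rpl36a, so the higher count of Rpl36al need not mean higher abundance. Rps27rt over Rps27 differed by 0.50 and 0.55 in IL4_IL13 and IL4_IL13_TNFa against Control, and Rpl7l1 over Rpl7 by under 0.12 in each comparison. Pairing the libraries by replicate number with an exact sign-flip test gave no adjusted p under 0.104. With 6 replicate numbers the lowest p this sign-flip test can give is 0.03125. It could therefore hardly pass after adjustment over 15 and decides nothing here. Rps27rt had 2.84, 4.2 and 5.64 CPM in IL4_IL13_TNFa, 2.77, 3.77 and 6.09 CPM in IL4_IL13 and 1.26, 2.79 and 4.35 CPM in Control. Its level did not pass in any comparison with TMM, and with the replicate block it was higher in both cytokine groups than in Control (0.58 and 0.51, adjusted p = 0.0141 and 0.0232).

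**Figure D5:**
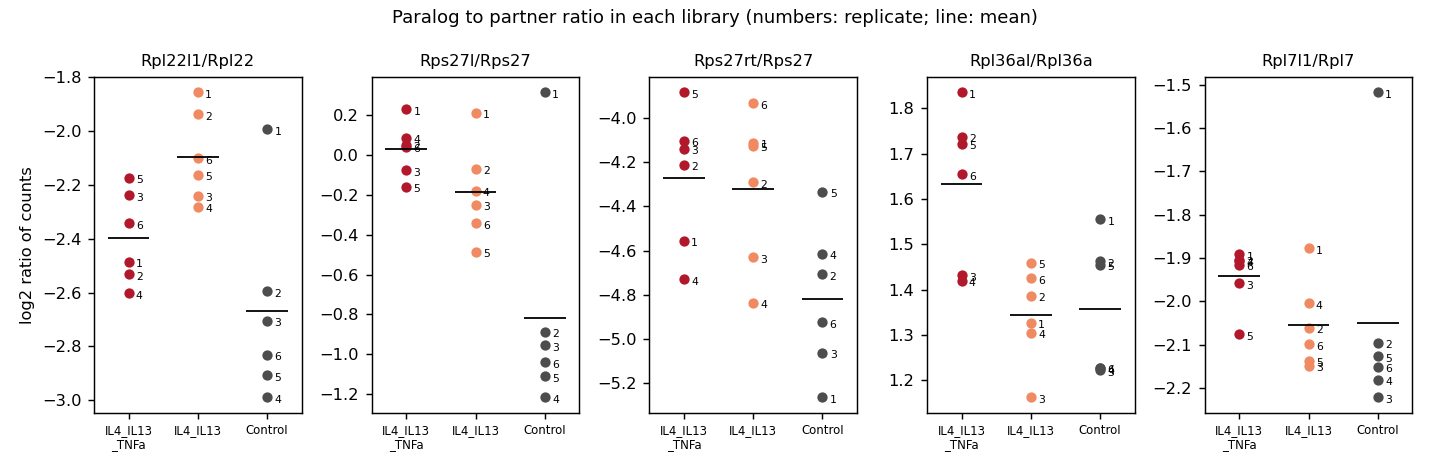
Log2 ratio of the counts of a paralog to those of its partner in each library (points, numbered by replicate) with the group mean (line); the y axes differ between panels. Control replicate 1 lies at the top of its group for Rpl22l1/Rpl22, Rps27l/Rps27 and Rpl7l1/Rpl7, and in Rpl36al/Rpl36a the IL4_IL13_TNFa mean is 1.63 beside 1.34 in IL4_IL13.

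Ribosome biogenesis factors, which build the subunits in the nucleolus, were mostly higher in both steps with TMM. Among 76 measured such factors 56 were higher and 2 (Zfp622 and Nvl) lower in IL4_IL13 than in Control, where 29.3% of all genes were higher and 29.7% lower, with a median log2 fold change of 0.40 beside 0.35 for the ribosomal protein genes. Without Control replicate 1 these were 68 and 2, with a median of 0.58, beside 35.5% higher and 32.5% lower of all genes. Gar1, of the pseudouridine-guiding particles, rose by 1.15 ± 0.20 to a mean of 21.8 CPM in IL4_IL13, against 9.77 CPM in Control (adjusted p = 7.93e-05). With added TNFa, 61 were higher and 1, Tcof1, lower, with a median of 0.48. Without overlap between the groups, 52 of the 76 were wholly higher and 1 wholly lower. Of all genes 30.3% were called higher, 29.3% lower, 23.3% wholly higher and 21.6% wholly lower. Library totals left 36 higher and 2 lower, where 17.6% of all genes were called higher and 46.2% lower, with a median of 0.27 that, unlike the −0.096 of the ribosomal protein genes, kept its sign. Rrs1, which loads the 5S particle onto the large subunit, rose to a mean of 103 CPM in IL4_IL13_TNFa, against 38.9 CPM in IL4_IL13 and 19.6 CPM in Control, by 1.40 ± 0.18 in IL4_IL13_TNFa against IL4_IL13 (adjusted p = 1.84e-06). Eif6, which keeps the large subunit from joining too early, averaged 193 CPM in IL4_IL13_TNFa and 88.3 CPM in IL4_IL13, a rise of 1.13 ± 0.088 (adjusted p = 1.93e-09). Against Control, 70 of the 76 were higher with 3 cytokines and none was lower with TMM, with a median of 0.90. Of all genes 36.4% were higher and 37.3% lower there. Library totals left 64 higher and 6 lower, with a median of 0.65, where 24.9% of all genes were higher and 51.4% lower.

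Among ribosomal proteins under other symbols, Fau and Rack1 were higher in IL4_IL13 than in Control, by 0.19 and 0.30, although Fau did not pass with library totals (0.14, adjusted p = 0.0997). With added TNFa Rack1, a scaffold on the small subunit, rose by 0.15 (adjusted p = 0.00218), but did not pass with library totals, at −0.06 (adjusted p = 0.210). Translation initiation factors were higher in 22 and lower in 2 (Eif4a2 and Eif2b4) of 32 genes in IL4_IL13 against Control, and higher in 21 and lower in 2 (Eif2b2 and Eif4b) with added TNFa, where library totals left 6 and 4. Of 9 elongation and release factors, 7 were higher and none lower in the first comparison and 5 (Eif5a, Eef1g, Gspt1, Etf1 and Eef1d) and 0 in the second, or 1 and 3 with library totals. Eif5a, which relieves stalled ribosomes, had the largest rise, to a mean of 862 CPM in IL4_IL13_TNFa and 640 CPM in IL4_IL13, against 237 CPM in Control. Of 18 other genes with TOP messages, some of which stand in the lists above (Rack1 and Eef1g among them), 11 were higher and none lower in IL4_IL13 against Control, and 7 higher and 1 (Eif4b) lower in IL4_IL13_TNFa against IL4_IL13. As in the ribosomal protein genes, their median for added TNFa changed sign with the scaling, at 0.09 with TMM and −0.12 with library totals, where 2 were higher and 8 lower. Beside the counts of these lists, 29.3% of all genes were higher and 29.7% lower in IL4_IL13 against Control. With added TNFa these shares were 30.3% and 29.3% with TMM, and 17.6% and 46.2% with library totals. The 38.9% of TOP genes called higher there with TMM was near this background.

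With all libraries, calls among the genes upstream were fewer in IL4_IL13 against Control, and they went both ways. Of 14 genes of RNA polymerase I, which makes ribosomal RNA, 2 (Ubtf and Polr1e) were higher and 1 (Znrd1) lower in IL4_IL13 against Control, and 7 and 1 without Control replicate 1. With added TNFa, 7 were higher, led by the catalytic subunit gene Polr1a at 0.92, and 2 (Znrd1 and Taf1b) lower, or 2 and 4 with library totals. Of 15 genes of the mTORC1 pathway and of TOP message control, 4 (Myc, Larp1, Rheb and Eif4ebp1) were higher and 3 (Deptor, Tsc2 and Eif4ebp2) lower in the first comparison, and 6 and 1 (Eif4ebp2) in the second, or 3 and 4 with library totals. With all libraries in the first comparison, the called genes of both lists made up no larger share than among all genes, where 29.3% were higher and 29.7% lower. Without Control replicate 1 these shares over all genes were 35.5% and 32.5%. In the second comparison the shares over all genes were 30.3% and 29.3% with TMM, and 17.6% and 46.2% with library totals. The RNA polymerase I and mTORC1 lists had 50% and 40% higher there with TMM, beside 34.9% of the ribosomal protein genes. Larp1, which binds TOP tracts, averaged 370 CPM in IL4_IL13_TNFa, 219 CPM in IL4_IL13 and 165 CPM in Control. Its log2 fold changes were 0.41 ± 0.099 in IL4_IL13 against Control (adjusted p = 0.00176) and 0.75 ± 0.099 in IL4_IL13_TNFa against IL4_IL13 (adjusted p = 2.45e-06; 0.55 with library totals). Myc, a transcription factor that drives ribosome production, averaged 94.6 CPM in IL4_IL13_TNFa, 86.5 CPM in IL4_IL13 and 19.3 CPM in Control, a log2 fold change of 2.16 ± 0.36 in IL4_IL13 against Control (adjusted p = 6.31e-05; 2.94 without Control replicate 1). Deptor, an inhibitor of mTOR, fell by 0.44 to a mean of 38.8 CPM in IL4_IL13, against 52.6 CPM in Control (adjusted p = 0.0273). Of 20 cell cycle genes, 10 were higher and none lower in IL4_IL13 against Control, or 20 and 0 without Control replicate 1. In IL4_IL13_TNFa against IL4_IL13 all 20 were lower under both scalings, with a median of −2.89 with TMM and −3.09 with library totals, while the direction of the ribosomal protein genes there depended on the scaling, and the part of cell division in the ribosomal protein levels was not tested.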

How the data were processed

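RNA of 18 bulk macrophage libraries was sequenced, and the authors deposited whole-number counts per Ensembl gene and library. Per the submitters' processing notes, STAR 2.5.2b, featureCounts 1.5.1, RSEM 1.3.0, FastQC 0.11.5 and bcl2fastq 2.20.0.422 were among the tools and GRCm38 was the build. The sources used here do not give strand, read length or the handling of reads that fit several genes.

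Gene IDs were matched to GENCODE M21. Genes were kept with edgeR's filterByExpr (minimum count 10), leaving 13177. Counts were scaled by TMM, and all 18 libraries were fitted together with edgeR 4.0.16 (R 4.3.3) by robust quasi-likelihood. Each adjusted p that is not called a permutation p comes from that test, with Benjamini-Hochberg adjustment over all genes kept and a threshold of 0.05. The standard error of a log2 fold change is its size divided by the square root of F. Alternatives used library totals, other scalings and filters, DESeq2 1.42.0, limma 3.58.1 (voom), a replicate block and leaving out each library. The procedure was checked on simulated counts.

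Same-numbered libraries deviated together (r = 0.128 to 0.671 in 18 pairs), so the numbers were taken to pair them. No pair of replicates agreed within sampling noise (lowest chi-square per degree of freedom 2.72 over 45 pairs). CPM are TMM-scaled, levels per kb use a GENCODE M21 transcript, and paralog ratios use exact two-sided permutation tests over libraries, adjusted over 15. Named genes were the 5 largest rises past the threshold and the 3 smallest changes per comparison (at 5 CPM or more), members of paralog pairs, and 13 with known roles; Rpl8, Rpl27a, Rps18 and genes named to spell out a short count were chosen after their values were seen. The members and lists were chosen with earlier results of these data known. A few genes are not reported here by name, and they stay in every fit and count.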

Additional observations from a re-analysis of the deposited data

Results flagged for a closer look

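In 16 of 123 sets of 6 libraries examined, the highest or lowest library stood far from the others by Dixon's test, where chance flags about 1 in 20 sets. Of these, 12 were Control replicate 1. Rpl10a had 55.5 CPM there (35.9 to 42.4 in the other Control libraries), Rpl22l1 29.7 (16.5 to 19.7), Rpl27 8.49 (5.16 to 6.10), Rpl3 106.0 (82.3 to 87.1), Rpl36al 43.4 (27.1 to 30.4), Rps27l 61.3 (36.9 to 43.4) and Rps29 6.48 (2.37 to 3.46). Rpl7l1 had 106.1 CPM (79.1 to 85.6). Lower than the other Control libraries were Rpl7, at 304 CPM (352 to 374), and Rps27, at 49.2 CPM (74.7 to 88.3). The log2 ratio of Rps27l to Rps27 was 0.32 (−1.22 to −0.89), and that of Rpl7l1 to Rpl7 was −1.52 (−2.22 to −2.10).

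Another 4 values stood apart elsewhere. Rps19bp1 had 25.8 CPM in IL4_IL13_TNFa replicate 6 (18.2 to 20.5 in the others), and the log2 ratio of Rpl7l1 to Rpl7 was −2.08 in IL4_IL13_TNFa replicate 5 (−1.96 to −1.89). The members' share of counts was 0.997% in Control replicate 2 (1.03% to 1.05%), and Rpl13a had 26.6 CPM in Control replicate 3 (22.6 to 24.0).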

How the results depend on the processing

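Library totals gave 69, 4 and 49 members higher and 0, 21 and 1 lower for IL-4 with IL-13 against Control, for added TNFa, and for all 3 cytokines against Control, in that order, with medians of 0.31, −0.096 and 0.21. The estimate changed sign in 0, 50 and 9 of 83 members, of which 11 and 7 in the comparisons with IL4_IL13_TNFa had passed with TMM. Among the genes named by rule that passed with either scaling, the sign changes for added TNFa were those of Rpl10 (−0.075), Rpl7 (−0.19), Rplp0 (−0.14), Rplp1 (−0.18) and Rplp2 (−0.031), and for IL4_IL13_TNFa against Control those of Rpl7 (−0.063) and Rpl7a (−0.055). Only the 38 members with at least 50% unique windows gave 35, 10 and 36 higher, from fewer genes. With DESeq2 the counts were 75, 30 and 79, with limma voom 75, 30 and 79, with upper quartile factors 69, 23 and 76, with no filter 77, 22 and 80 of 86, and with a stricter filter 72, 23 and 76. The replicate block gave 80, 43 and 81 higher, beside 4403, 4338 and 5046 of all 13177 genes. It lost no call that was made without it.

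Leaving out 1 library at a time gave 72 to 78, 23 to 36 and 77 to 80 members higher, 0 lower in the comparisons with Control and 0 to 1 in IL4_IL13_TNFa against IL4_IL13. The medians ranged from 0.32 to 0.37, 0.08 to 0.15 and 0.44 to 0.49, and the differences in share from 0.204 to 0.257, −0.124 to −0.0662 and 0.115 to 0.157 percentage points. In the same order of comparisons, the paralog differences ranged from 0.51 to 0.71, −0.34 to −0.25 and 0.21 to 0.41 for Rpl22l1/Rpl22, and from 0.55 to 0.86, 0.15 to 0.29 and 0.77 to 1.07 for Rps27l/Rps27. They ranged from 0.41 to 0.60, −0.05 to 0.14 and 0.46 to 0.65 for Rps27rt/Rps27, from −0.04 to 0.03, 0.25 to 0.33 and 0.23 to 0.32 for Rpl36al/Rpl36a, and from −0.04 to 0.10, 0.094 to 0.15 and 0.072 to 0.21 for Rpl7l1/Rpl7. The cause of these changes was not tested. Genes with few counts, such as Rps27rt, and genes with near-identical copies are the least certain.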

Other observations

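Mitochondrial ribosomal proteins, which are encoded in the nucleus and translate the mitochondrial genome's few messages, were also mostly higher with TMM. Of 77 tested, 60 were higher and 1, Mrpl24, lower in IL4_IL13 than in Control, beside 29.3% and 29.7% of all genes. The median log2 fold change was 0.31. Without Control replicate 1 the counts were 64 and 1, beside 35.5% and 32.5% of all genes. With added TNFa, 53 were higher and 3 (Mrps25, Mrps15 and Mrps6) lower than in IL4_IL13, with a median of 0.29, beside 30.3% and 29.3% of all genes, or 17 and 11 with library totals, beside 17.6% and 46.2%. The largest rise there was that of Mrpl52, at 1.81, and in IL4_IL13 against Control that of Mrps28, at 1.33.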
